A study of Mus musculus with 13 samples.

Results

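The transcription factor p53, encoded by Trp53, and 9 of its classical target genes were followed through the series: Mdm2, Cdkn1a, Ccng1, Bax, Bbc3, Phlda3, Sesn2, Aen and Zmat3. They were taken by symbol from the gene count table. All 10 were found among its 24470 genes, and all 10 passed the filter on low counts that left 12523 genes for testing. The samples were E14 mouse embryonic stem cells, a single established line of 129/Ola background, grown in serum with leukemia inhibitory factor, and no group carried a mutation, a damaging agent or any other treatment. In the low-input protocol, Tn5 transposase cut and tagged accessible chromatin in permeabilised cells, and the mRNA of those cells was captured on oligo-dT beads after lysis. It was run on 10000 and 20000 cells in experiment 1 and on 5000, 10000 and 20000 cells in experiment 2, on another day, so that there are 5 mRNA and 5 ATAC libraries. Omni-ATAC, a standard protocol used as a benchmark, gave 1 ATAC library each from 5000, 10000 and 50000 cells. Wild-type cells on different days are no model of p53 activation or loss, so the levels below are those of unperturbed cultures.

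In most cells p53 is made constantly and destroyed constantly, because the ubiquitin ligase Mdm2 binds it and sends it to the proteasome. DNA damage, ribosomal stress and oncogene activity block that step, p53 protein accumulates, and it binds paired decamers in its target genes, which halt the cell cycle, start apoptosis, adjust metabolism and, through Mdm2, close a negative feedback loop. Control is therefore mainly on the protein, which these data do not measure, and embryonic stem cells are known for a high basal amount of p53 together with a weak arrest response.

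The 250 bases before the annotated start carry p53 motifs in several members. They are shown for Cdkn1a and Ccng1, which hold the full paired site, and for Mdm2 and Trp53, the core of the feedback loop. Sequences are from RefSeq, build GRCm38.p6, the same coordinates as the mm10 build of the deposited files, and represent the C57BL/6J reference and not the 129/Ola genome of these cells. Of the 10 members, 9 had an entry, Zmat3 being the one without. The stretches are Cdkn1a at chr17:29090729-29090978 on the plus strand, Ccng1 at chr11:40755287-40755536 on the minus strand, Mdm2 at chr10:117710759-117711008 on the minus strand, and Trp53 at chr11:69580251-69580358 on the plus strand. The Trp53 stretch is shortened to leave out the neighbouring gene Wrap53. Each is written 5′ to 3′ in the direction of the gene, and capitals mark matches to the p53 half-site or full site.
Cdkn1a: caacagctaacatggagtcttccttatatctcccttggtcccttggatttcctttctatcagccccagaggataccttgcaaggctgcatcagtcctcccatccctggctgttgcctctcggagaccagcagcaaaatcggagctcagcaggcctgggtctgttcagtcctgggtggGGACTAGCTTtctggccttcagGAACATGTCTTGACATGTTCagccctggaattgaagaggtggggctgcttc
Ccng1: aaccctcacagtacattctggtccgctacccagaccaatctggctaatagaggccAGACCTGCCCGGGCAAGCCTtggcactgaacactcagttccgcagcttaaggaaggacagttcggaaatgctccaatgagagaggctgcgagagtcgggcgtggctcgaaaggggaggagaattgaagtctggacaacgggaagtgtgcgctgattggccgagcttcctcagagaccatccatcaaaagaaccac
Mdm2: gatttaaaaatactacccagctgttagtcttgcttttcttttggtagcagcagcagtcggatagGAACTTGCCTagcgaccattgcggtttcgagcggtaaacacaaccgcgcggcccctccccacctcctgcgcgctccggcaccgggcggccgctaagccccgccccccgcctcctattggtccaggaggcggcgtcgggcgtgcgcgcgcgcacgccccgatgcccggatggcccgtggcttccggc
Trp53: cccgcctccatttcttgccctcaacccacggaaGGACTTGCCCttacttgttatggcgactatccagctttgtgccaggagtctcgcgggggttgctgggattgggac

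Both strands were searched for the p53 half-site without mismatch, and for the full site of 20 bases with up to 2 mismatches, which may share letters with a half-site. A half-site was present in 7.13% of 32851 RefSeq promoters and a full site in 0.661%. In Cdkn1a, which encodes the cyclin-dependent kinase inhibitor p21, a full site with 1 mismatch ran from 51 to 32 bases before the start, and a separate half-site from 73 to 64 bases before it. In Ccng1, the cyclin G1 gene, a full site with 1 mismatch ran from 195 to 176 bases before the start. Mdm2, Trp53 and Bax each held 1 half-site at the start used by the count table, and Aen held 1 only in the window before its second annotated start. Bbc3, Phlda3 and Sesn2 had no match in these windows, which says only that the letters are not there. The Bbc3 window at chr7:16309333-16309582 on the plus strand is shown as the contrast among the members with the largest changes, with the GC box GGGCGG in capitals, read on both strands.
Bbc3: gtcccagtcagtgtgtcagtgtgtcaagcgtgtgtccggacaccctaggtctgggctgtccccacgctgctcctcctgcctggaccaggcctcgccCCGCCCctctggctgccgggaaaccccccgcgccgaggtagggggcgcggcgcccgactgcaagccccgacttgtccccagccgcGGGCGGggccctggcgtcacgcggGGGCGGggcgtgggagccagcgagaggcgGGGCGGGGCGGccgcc
Bbc3 had 5 GC boxes in that window, a motif found at least once in 32.7% of the promoters. A match is a description of letters and not evidence of binding.

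Levels are given as CPM, the count of a gene scaled to the total of its library. Totals ran from 13727122 to 20426252 counts, so that 3 counts correspond to 0.147 to 0.219 CPM. CPM carry no correction for transcript length, so levels are compared between libraries, and sums over a list describe libraries and not its genes.

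Trp53 itself (chr 11, 69580359 to 69591873, plus strand) was measured at 163 and 136.5 CPM in the libraries from 10000 and 20000 cells of experiment 1. In experiment 2 it was at 125, 113.9 and 153.1 CPM with 5000, 10000 and 20000 cells. The experiments overlapped, since the 20000-cell library of experiment 2 lay above that of experiment 1. In the fit across all genes, experiment 2 minus experiment 1 was -0.17 ± 0.14 on the log2 scale (SE, 95% interval -0.45 to 0.12, adjusted p = 0.507, edgeR quasi-likelihood test), and no change in Trp53 mRNA was called. The interval covers anything from a modest fall to a slight rise. Trp53 has a processed copy in RefSeq, Trp53-ps on chr 17, and how reads matching both were counted is not given in the sources used here.

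The comparison of experiments asked whether the p53 targets, a common readout of cell stress, stood at the same level on both days. Of the 10 members, 8 were lower in experiment 2 and 0 were higher, at an adjusted p under 0.05. Across all 12523 genes, 6.76% were called lower, 5.75% higher and 12.5% in either direction. The members were chosen with earlier results of these data known, so their count is a description and not an independent test against these shares. The fit used the 4 libraries from 10000 and 20000 cells, and the 5000-cell library of experiment 2 stood outside it as a further observation. Levels of 7 members did not overlap, all 3 libraries of experiment 2 lying below both of experiment 1, a pattern shown by 23.9% of the genes tested. The median change of the 9 targets was -0.88 on the log2 scale, while that of all genes tested was 0.00, with 49.9% of them negative. Each experiment is 1 day of culture, so that day, culture and library preparation cannot be told apart, and the p-values measure the spread between libraries within a day and not between days.

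**Figure D1:**
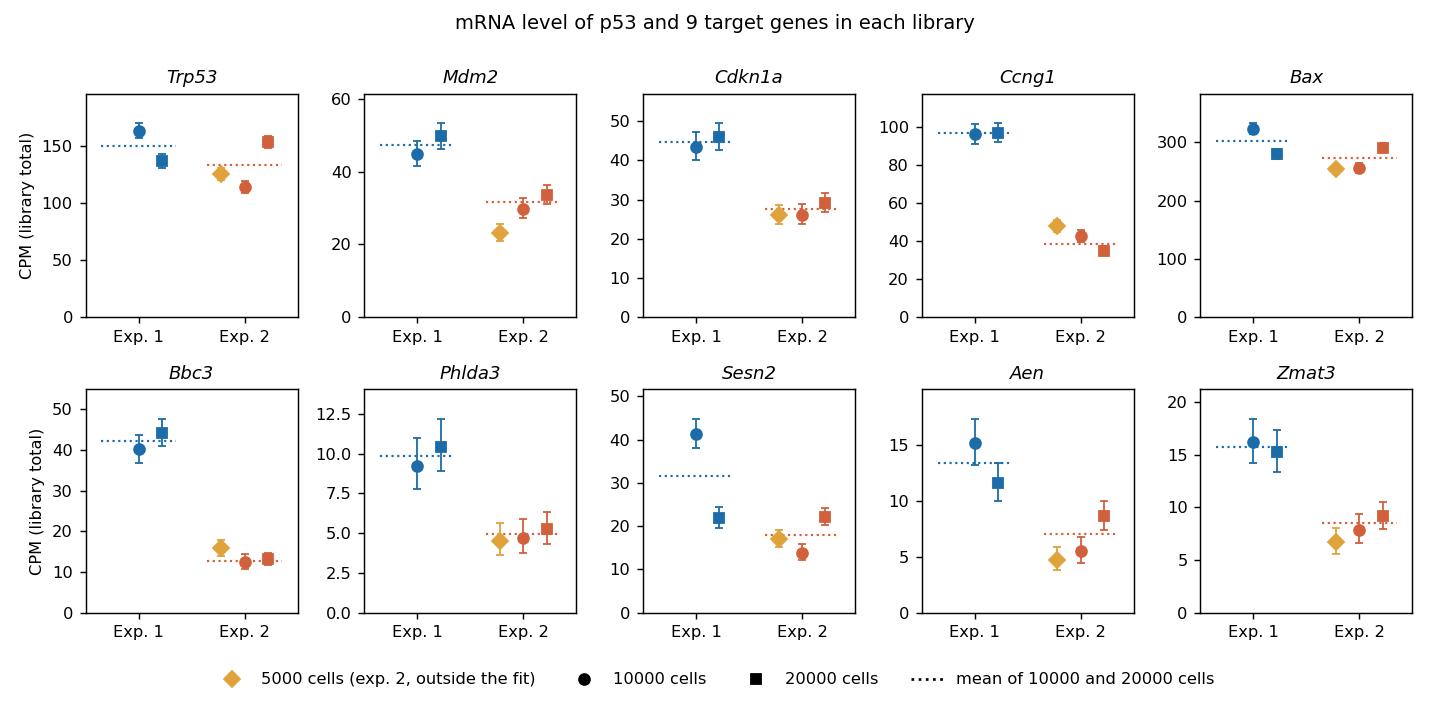
CPM of each member in the 5 mRNA libraries, 1 panel per gene with its own linear axis from 0, points coloured by experiment with 95% Wilson intervals for counting error, and dotted lines at the mean of the 10000- and 20000-cell libraries. Bbc3, Ccng1, Mdm2, Cdkn1a, Phlda3, Aen and Zmat3 have all points of experiment 2 below both points of experiment 1, and Trp53, Bax and Sesn2 overlap.

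Mdm2 (chr 10, 117688875 to 117710758, minus strand), the ligase that ends the p53 signal and is itself a p53 target, stood at 44.87 and 49.72 CPM with 10000 and 20000 cells in experiment 1. It stood at 23.09, 29.86 and 33.63 CPM with 5000, 10000 and 20000 cells in experiment 2. The lowest library of experiment 1 exceeded the highest of experiment 2. The fall was 0.57 on the log2 scale (fitted value -0.57 ± 0.16, SE, adjusted p = 0.0171, edgeR), 1.49-fold. It was the smallest of the 8 called changes, and the call was lost without the 10000-cell library of experiment 2 (adjusted p = 0.169), the 20000-cell library of experiment 1 (0.104) or the 20000-cell library of experiment 2 (0.0538).

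Among the genes that slow the cell cycle, Cdkn1a (chr 17, 29090979 to 29100722, plus strand) was at 43.49 and 45.97 CPM in experiment 1. With 5000, 10000 and 20000 cells in experiment 2 it was at 26.07, 26.18 and 29.13 CPM. The spread within each day was small against the gap between days. The change was -0.69 ± 0.16 (SE, adjusted p = 0.00515, edgeR), 1.62-fold lower, and without the 10000-cell library of experiment 2 its adjusted p was 0.0765.

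Ccng1 (chr 11, 40748552 to 40755286, minus strand) encodes a cyclin that recruits a phosphatase to Mdm2. It was at 96.09 and 96.89 CPM in experiment 1, against 47.73, 42.5 and 34.86 CPM with 5000, 10000 and 20000 cells in experiment 2. The libraries of experiment 1 were nearly equal, and all of experiment 2 were far below them. The change was -1.32 ± 0.15 (SE, 95% interval -1.62 to -1.02, adjusted p = 7.8e-07, edgeR), 2.49-fold lower, and only 4.38% of tested genes fell further. It stayed called in 11 of 11 alternatives, between -1.46 and -1.17 on the log2 scale.

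The pro-apoptotic genes divided. Bbc3 (chr 7, 16309583 to 16318334, plus strand) encodes PUMA, a BH3-only protein that p53 uses to trigger cell death. Its levels were 40.07 and 44.16 CPM in experiment 1, from 550 and 660 counts. In experiment 2 they were 15.81, 12.45 and 13.12 CPM with 5000, 10000 and 20000 cells, from 265, 193 and 268 counts. No library of experiment 2 reached the lower 95% Wilson bound of the 10000-cell library of experiment 1, 36.86 CPM. The change was -1.72 ± 0.18 (SE, 95% interval -2.09 to -1.35, adjusted p = 3.61e-07, edgeR), 3.29-fold lower and the steepest of the 10. Of the genes tested, 2.45% fell further. Bbc3 was called in 11 of 11 alternatives.

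Bax (chr 7, 45461695 to 45466898, minus strand), the effector that opens the outer mitochondrial membrane downstream of PUMA, did not follow. It was at 324 and 279.7 CPM in experiment 1, and at 253.6, 256.1 and 291.2 CPM with 5000, 10000 and 20000 cells in experiment 2, so the experiments overlapped. The difference was -0.14 ± 0.12 (SE, 95% interval -0.39 to 0.11, adjusted p = 0.516, edgeR). That interval lies above the interval of Bbc3, although the difference between both genes was not tested.

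Phlda3 (chr 1, 135766085 to 135769134, plus strand) encodes a pleckstrin-homology protein that competes with Akt for membrane lipids. It was at 9.252 and 10.44 CPM in experiment 1, and at 4.534, 4.708 and 5.238 CPM with 5000, 10000 and 20000 cells in experiment 2. The experiments did not overlap, yet the counts were the lowest of the members, from 73 to 156. The change was -0.98 ± 0.29 (SE, adjusted p = 0.0265, edgeR), 1.98-fold lower. It was called in 6 of 10 alternatives, and was lost in DESeq2 (adjusted p = 0.0596) and without the 10000-cell library of experiment 2 (0.176), the 20000-cell library of experiment 1 (0.0627) or the 20000-cell library of experiment 2 (0.105).

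Aen (chr 7, 78895927 to 78908833, plus strand), an exonuclease that digests DNA during apoptosis, was at 15.15 and 11.58 CPM in experiment 1. With 5000, 10000 and 20000 cells in experiment 2 it was at 4.713, 5.481 and 8.616 CPM. The ranges did not overlap, although the 20000-cell libraries were nearer to each other than the 10000-cell ones. The change was -0.91 ± 0.27 (SE, adjusted p = 0.0257, edgeR), 1.88-fold lower. The call was lost in DESeq2 (adjusted p = 0.066) and without either 10000-cell library, at 0.141 for experiment 1 and 0.305 for experiment 2.

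Zmat3 (chr 3, 32334792 to 32365665, minus strand), a zinc-finger protein that binds RNA and acts in p53-dependent growth control, was at 16.17 and 15.26 CPM in experiment 1. It was at 6.682, 7.867 and 9.155 CPM with 5000, 10000 and 20000 cells in experiment 2. All libraries of experiment 2 were below those of experiment 1. The change was -0.88 ± 0.23 (SE, adjusted p = 0.0132, edgeR), 1.84-fold lower, and it was not called without the 10000-cell library (0.131) or the 20000-cell library (0.0522) of experiment 2. Its annotated extent overlaps the long noncoding RNA 4930429B21Rik by 177 bp, and without a stated use of strand their reads cannot be told apart there.

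Sesn2 (chr 4, 132492804 to 132510456, minus strand), a leucine sensor that restrains mTORC1, was the least even of the called members. It was at 41.31 CPM with 10000 cells but 21.88 CPM with 20000 cells in experiment 1. With 5000, 10000 and 20000 cells in experiment 2 it was at 16.94, 13.86 and 22.13 CPM. The 20000-cell libraries of both days were therefore level, and the ranges overlapped. The fitted change was -0.80 ± 0.24 (SE, adjusted p = 0.0274, edgeR), but the call rested on the 10000-cell pair. It was lost without the 10000-cell library of experiment 1, where the value was -0.27 (adjusted p = 0.606), without that of experiment 2 (0.359), and in DESeq2 (0.0648).

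Adding the 5000-cell library of experiment 2 to the fit left all 8 members called. Leaving out 1 library of the 4 left between 2 and 6 called, the 2 being Bbc3 and Ccng1, without the 10000-cell library of experiment 2. In that fit 803 of 13179 genes were called, against 1567 of 12523 with all 4 libraries, and over the fits that left out a library the number ran from 803 to 1815. DESeq2 called 5 members and 1332 genes.

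**Figure D2:**
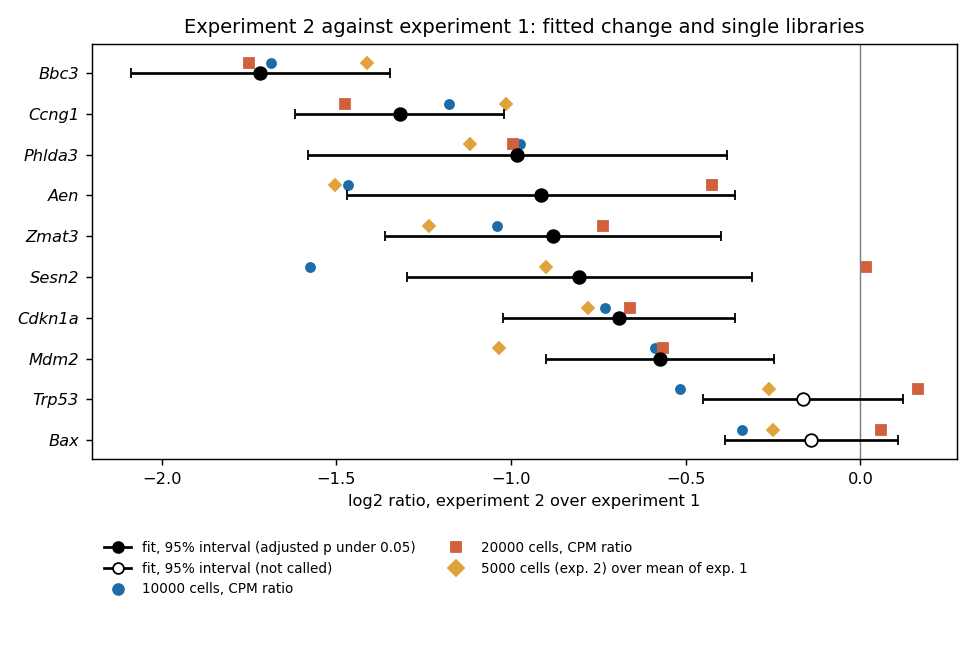
Fitted log2 difference of experiment 2 minus experiment 1 for each member with its 95% interval, beside the log2 ratios of single libraries. Bbc3 and Ccng1 lie farthest below 0, at -1.72 and -1.32, the intervals of Trp53 and Bax cross 0, and the single ratios of Sesn2 run from -1.58 at 10000 cells to 0.02 at 20000 cells.

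Cell number was the other factor of the design, and no member was called between 20000 and 10000 cells. No gene was called either (0% of 12523 genes), 101 genes and 0 members had an unadjusted p under 0.05, and DESeq2 also called 0 genes (edgeR fit without a block). The members' differences ran from -0.34 ± 0.47 for Sesn2 (SE, 95% interval -1.46 to 0.79) to 0.15 ± 0.49 for Phlda3, each with an adjusted p of 0.999. With the experiment as a replicate block 4 genes were called, none of them a member. Without the block the intervals were wide, since each group then holds libraries of both days, and the standard error for Ccng1 was 0.54. With the block it was 0.14, around a difference of -0.15, and the members ran from -0.16 ± 0.21 for Sesn2 to 0.15 ± 0.31 for Phlda3 (SE), each with an adjusted p of 0.998. The biological coefficient of variation was 32% without the block, against 17.1% in the comparison of experiments.

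The rest of the pathway was read from lists of regulators and further targets, compared here by their counts only. Pairs of values in these lists are means of the 10000- and 20000-cell libraries (n = 2 each) of experiments 1 and 2, in that order. Of 14 upstream kinases and activators, which include Atm, Chek1, Chek2 and the ribosomal proteins that inhibit Mdm2, 0 were called in either direction, with a median of 0.01 on the log2 scale. Over all genes tested the share called was 12.5%, and nothing particular to this short list is read from its 0. Named for their CPM were the ribosomal proteins Rpl23, at 2601 CPM in experiment 1 and 2870 CPM in the fitted libraries of experiment 2 (0.14 ± 0.11, SE, adjusted p = 0.43, edgeR), and Rpl11, at 1581 and 1554 CPM. Of 12 tested inhibitors and p53 family members 0 were called, with a median of -0.09. There the deubiquitinase Usp7 stood at 61.33 and 64.25 CPM and the corepressor Trim28 at 1955 and 1937 CPM in experiments 1 and 2.

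Further targets in arrest and repair counted 13, of which 4 were lower and 1 was higher, with a median of -0.13. As for the members, 6.76% of all genes tested were called lower and 5.75% higher. The antiproliferative gene Btg2 fell from 11.36 to 4.057 CPM (-1.49 ± 0.31, SE, adjusted p = 0.00192, edgeR), with 2.267 CPM in the 5000-cell library. The polo-like kinase genes Plk2, from 6.509 to 2.102 CPM, and Plk3, from 12.45 to 5.864 CPM, were also lower, as was Gtse1, a microtubule-bound regulator of p53, from 166.2 to 123.5 CPM. Ccnd2, a D-type cyclin, rose from 4.231 to 9.364 CPM. Gadd45a, a growth-arrest gene, was at 13.48 and 19.57 CPM and was not called (adjusted p = 0.105, edgeR).

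Of 18 tested targets in cell death and signalling, 7 were lower and 1 was higher, with a median of -0.49, beside 6.76% and 5.75% of all genes tested. Ei24 fell from 8.985 to 3.145 CPM, the p53 cofactor gene Trp53inp1 from 17.15 to 8.028 CPM, and Perp, a tetraspan protein of the plasma membrane, from 20.78 to 10.77 CPM. The receptor tyrosine kinase gene Epha2 fell from 35.15 to 20.24 CPM and the adenylate kinase gene Ak1 from 15.41 to 7.728 CPM. Siva1, a pro-apoptotic adaptor, fell from 637.1 to 500.2 CPM, with 561.4 CPM in the 5000-cell library. Ckap2, a spindle protein, rose from 62.5 to 87.29 CPM, but its 5000-cell library stood at 61.03 CPM, level with experiment 1. Ckap2 lies on chr 8, where the median over 409 genes of at least 10 CPM was 0.46, and its part in the change of Ckap2 was not tested. None of the 10 members lies on chr 8.

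In metabolism, 4 of 9 tested targets were lower and 0 were higher, with a median of -0.48, beside the same shares of all genes, 6.76% and 5.75%. Lpin1, a phosphatidate phosphatase, fell from 13.19 to 4.704 CPM, Ddit4, an mTORC1 inhibitor, from 41.87 to 21.21 CPM, and the carnitine palmitoyltransferase gene Cpt1c from 11.8 to 5.074 CPM. Tigar, which lowers glycolytic flux, fell from 84.3 to 60.04 CPM. The AMPK subunit gene Prkab1, at 32.45 and 39.3 CPM, was not called. Over the called genes named from these 3 lists the standard errors ran from 0.11 (Siva1) to 0.40 (Plk2) on the log2 scale, and the adjusted p from 0.00051 (Lpin1) to 0.0403 (Siva1, edgeR). Across these 3 lists 15 of 40 tested genes were called lower and 2 higher, with a median of -0.39, beside 6.76% and 5.75% of all genes tested. These lists too were chosen with earlier results of these data known, so the counts are descriptions only. Without the 10000-cell library of experiment 2 the lower count was 5, and in the analyses that left out another library it was 11 to 14. The higher count was 0 or 1 in each of these 4 analyses and 1 in DESeq2, so the 2 higher calls did not both hold in any of them, and the number of all genes called changed in these fits as given above.

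Sesn2 and Bbc3 also respond to the integrated stress response, a translational programme run by Atf4, and a list of 12 of its genes had 2 lower and 1 higher, with a median of 0.19, beside 6.76% and 5.75% of all genes tested. Ddit3, the pro-apoptotic factor CHOP, fell from 13.68 to 5.575 CPM (-1.28 ± 0.29, SE, adjusted p = 0.0047, edgeR), and Chac1, which degrades glutathione, from 58.09 to 41.38 CPM. Psat1, a serine synthesis enzyme, rose from 119.7 to 192.1 CPM. Atf4 itself was at 626.5 and 578.2 CPM and the translation repressor gene Eif4ebp1 at 1637 and 2038 CPM, neither of them called.

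**Figure D3:**
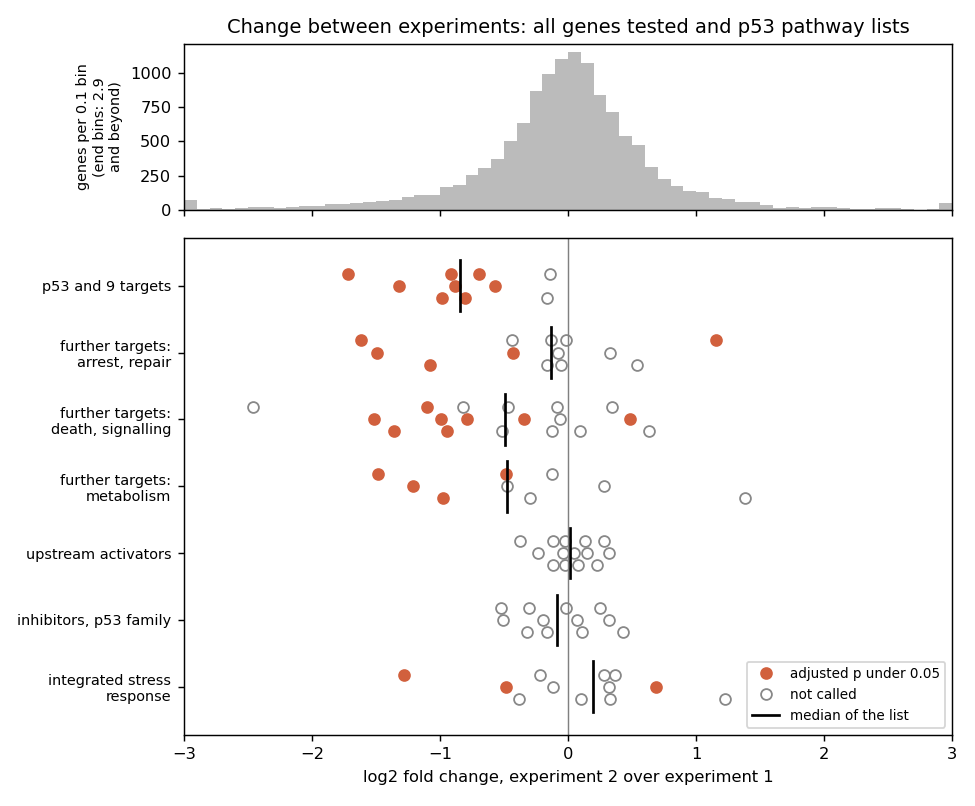
Log2 difference of experiment 2 minus experiment 1 for the genes of each pathway list, below a histogram of all 12523 genes tested whose end bins also hold values beyond the axis. Filled points passed an adjusted p of 0.05, bars mark medians, and the members and the 3 lists of further targets have medians below 0 (-0.39 over the 40 further targets), and the regulators lie around 0.

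Cell identity markers were read beside these changes. The 9 stem cell markers summed to 3575 to 3669 CPM in experiment 1 and 3516 to 3585 CPM in experiment 2, with Zfp42 and Klf4 higher and Utf1 lower in experiment 2. The rise of Zfp42, 0.38 on the log2 scale, was below the median of 0.46 on its chromosome, chr 8. The 8 fibroblast markers summed to 33.36 to 38.14 CPM against 9.253 to 11.22 CPM, of which Thy1, which is not restricted to fibroblasts, made up 62.9% to 88.8% by library. Thy1 fell from 31.54 to 6.91 CPM. Col3a1 had 0 counts in all 5 libraries, 4 of the 8 were at 0 in at least 1 library, and the other tested ones were not called: Col1a1 was at 1.382 and 0.6962 CPM, Pdgfra at 1.891 and 0.4448 CPM, and Pdgfrb at 0.6319 and 1.54 CPM, in experiments 1 and 2. The 7 differentiation markers summed to 4.416 to 5.318 CPM against 6.952 to 11.16 CPM, with Gata6 lower (2.339 and 0.1469 CPM) and Pax6 higher (0.07285 and 5.245 CPM). The part of these shifts in the members' changes was not tested, and in bulk libraries fewer cells of a kind and less RNA per cell cannot be told apart.

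The 3 genes whose levels over the 5 libraries were most like those of Trp53 were Eif4ebp2, Fgfr1op2 and Aurkb, out of 6484 genes averaging 10 CPM or more. Their Euclidean distances to Trp53 in centred log2(CPM + 1) were 0.0528, 0.0536 and 0.0632.

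Promoter chromatin was read from the 8 deposited peak lists, 5 low-input and 3 Omni-ATAC. The lists give positions only, without height or score, and their sizes ran from 9097 to 95457 peaks, so a missing peak may reflect a small list. A promoter peak was one within 1000 bp of the 5′ end of the gene in the count table. Members had one in 50 of 80 pairs of gene and list. With 5000 cells of experiment 2, 5 of the 10 members had a promoter peak, against 31.1% of all 24470 genes, and with 10000 cells of experiment 1, 3 members had one, against 31.1%. The 10000-cell list of experiment 2 gave 7 members against 40.5% of genes, the 20000-cell list of experiment 1 gave 8 against 37.4%, and the 20000-cell list of experiment 2 gave 7 against 50.3%. Omni-ATAC gave 3 members with 5000 cells against 18.6%, 7 with 10000 cells against 41.5%, and 10 with 50000 cells against 61.1%. Among the 6485 genes of at least 10 CPM those shares ran from 38.8% to 95.7%. The share of the 10 members lay above that of such genes in the 20000-cell list of experiment 1 and the 50000-cell Omni-ATAC list. It lay below in the other 6 lists. The sets are unlike, since Phlda3 and Aen averaged 6.834 and 9.108 CPM. The counts of Trp53 and Cdkn1a also depend on the start and distance used, as given below.

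At the starts used by the count table, the 2 members with a full p53 site stood at opposite ends of the peak counts. Ccng1 had a promoter peak in 8 of 8 lists, the widest one per list being 70 to 849 bp long. A peak covered all 20 bases of its full p53 site in 5 lists, and in 2 others, from 5000 cells of experiment 2 and 10000 cells of experiment 1, the peak ended 3 bases into the site. Cdkn1a was the reverse: at the start used by the count table a peak was found only in the Omni-ATAC list from 50000 cells, where a peak of 119 bp covered the whole full site shown above. A second annotated start of Cdkn1a, at 29093769, had a peak nearby in 7 of 8 lists, and the unified region there ran from 2647 to 2828 bp after the first start. Both genes thus have the full motif close to the start used by the count table, wholly under a peak in 5 lists for Ccng1 and in 1 for Cdkn1a.

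Mdm2 had a promoter peak in 7 lists, all but the 10000-cell list of experiment 1, and its half-site was covered in the Omni-ATAC list from 50000 cells alone. Aen had one in 7 lists, all but Omni-ATAC from 5000 cells. Peaks over the half-site before the second start of Aen occurred in 3 lists. The lncRNA Gm39039 ends 145 bp before the Aen start, within the same window. Phlda3 had a peak in 6 lists and Bbc3 in 5, and in 2 of those 5 lists a peak reached into the Bbc3 window printed above. The unified Bbc3 region lay 472 to 588 bp after the start used by the count table. It ran from 16310055 to 16310171, before a further annotated start of Bbc3 at 16310261. The window before that start held a peak in all 5 of those lists, and the window before another annotated start, at 16310431, in 1. Sesn2 had a promoter peak in 4 lists and Zmat3 in 3.

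Trp53 was counted with a peak in all 8 lists, but the assignment is ambiguous. The widest counted peak of each list was centred between -1004 and -945 bp of the Trp53 start, and the unified region there overlapped the start of Wrap53, an antisense neighbour whose start in the count table is 1035 bp from that of Trp53. In RefSeq, Wrap53 extends to 109 bp from the Trp53 start, so a peak at that start also lies near Wrap53. Within 500 bp of its start, Trp53 had a peak in 1 list, Omni-ATAC from 50000 cells. Its half-site was under no peak. Bax had a promoter peak in the same list alone. A region present in all 8 lists lay 6799 to 7063 bp from the Bax start, past the end of the gene and over the start of Ftl1, the ferritin light chain gene.

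**Figure D4:**
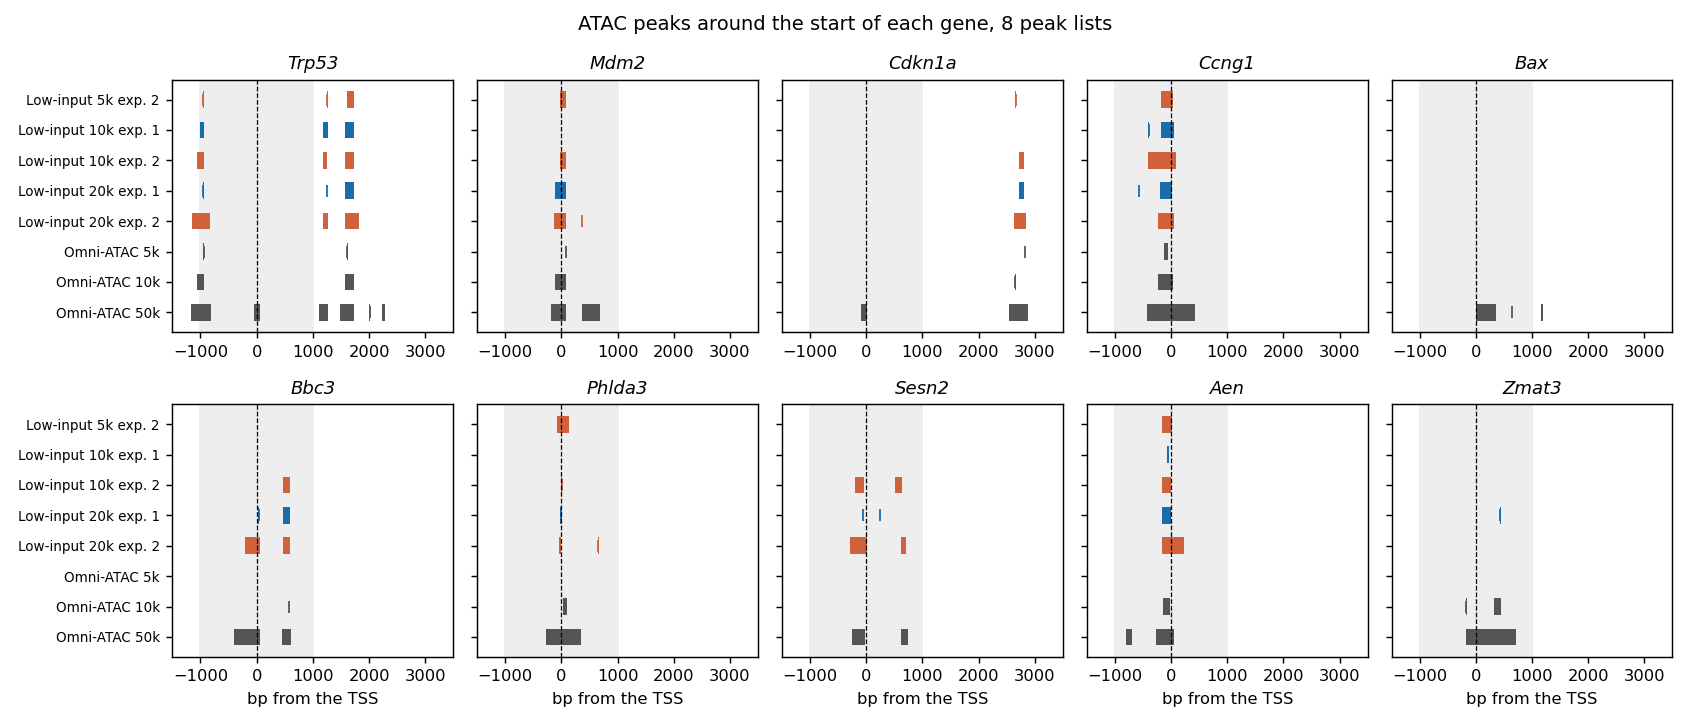
Positions of ATAC peaks from each list relative to the start of each member in bp, in the direction of the gene, with low-input lists of experiment 1 in blue, of experiment 2 in orange and Omni-ATAC in grey. The shaded band marks 1000 bp on each side, where Ccng1 has a peak in 8 lists, and Cdkn1a and Bax in 1 each.

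By experiment, the low-input lists with a promoter peak were counted for the 8 members that fell, out of 2 lists for experiment 1 and 3 for experiment 2. At equal cell number the lists of experiment 2 also held promoter peaks for more of all genes, 40.5% against 31.1% with 10000 cells and 50.3% against 37.4% with 20000 cells. Bbc3 and Sesn2 had one in 1 list of experiment 1 and 2 lists of experiment 2. Ccng1 and Aen had one in all lists of both, Mdm2 and Phlda3 in 1 and 3, Zmat3 in 1 and 0, and Cdkn1a in 0 and 0. Since the lists hold no heights, a difference in accessibility between experiments could not be tested.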

How the data were processed

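Low-input ATAC, low-input mRNA and Omni-ATAC libraries of E14 cells were grouped by protocol, cell number and experiment from the sample titles. The members and the gene lists were chosen with earlier results of these data known. The authors deposited unnormalized read counts per gene, with gene positions, in 1 table. ATAC peaks were deposited by the authors as intervals per library and as a unified list, a form with no other unit or score. Per the submitters' processing notes, the tools were cutadapt, Bowtie2 2.1.0, SAMtools 1.3.1, Picard, bedtools 2.24.0, MACS2 2.1.1, STAR 2.5, featureCounts and Subread 1.5.0-p1, and the build was mm10. Their settings, whether strand was used, and how multiply matching reads were handled are not given in the sources used here. The shortest peaks are 9 bp and make up 24.4% to 59.2% of a list.

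CPM were computed from library totals. Wilson intervals (95%) cover counting error only. Differences were tested with edgeR 4.0.16 in R 4.3.3 (TMM, filterByExpr, glmQLFit, glmQLFTest, Benjamini-Hochberg over 12523 genes, threshold 0.05) on 4 libraries. The 5000-cell library has no partner in experiment 1 and was not fitted. The SE is the log2 difference divided by the square root of F. The experiments took place on different days according to the series' design text, so the experiment number marks a shared day and pairs libraries across cell numbers. Across 11512 genes the differences between experiments at 10000 and 20000 cells correlated with r = 0.562. No libraries were duplicates (chi-square per gene at least 10.7). Nothing in the labels says that libraries of a day came from separate cultures. The steps were tested on simulated counts.

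Named genes are the 10 members and, from each list, the called genes (at most 6, by adjusted p) and the 2 with the highest mean CPM, with the 3 genes nearest to Trp53 and genes within 1000 bp of a member's start. Wrap53 and Ftl1 were named after the peaks were seen, and so were the marker genes. A level per kilobase was planned but not computed, because the table has no counted length. Alternatives were RLE size factors, library totals alone, DESeq2 1.42.0, no filter, at least 10 CPM on average, a block, each library left out, the 5000-cell library added, distances of 500 and 2500 bp, peaks of at least 50 bp, and the 9097 widest peaks of each list. The use of any RefSeq start, and the alternatives for the further targets, were added after the data were seen. Tables were made in Python 3.11.15 with pandas 2.3.3, numpy 2.4.6 and scipy 1.17.1, and figures with matplotlib 3.10.9.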

Additional observations from a re-analysis of the deposited data

Results flagged for a closer look

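For several members the log2 ratio of 1 library to another differed in sign between the 2 cell numbers or the 2 experiments. None of these differences was tested. Small ratios, such as those of Sesn2 with 20000 cells and Ccng1 in experiment 1, are close to level. Between experiments (2 over 1), Sesn2 was at -1.58 with 10000 cells and 0.0163 with 20000 cells. Trp53 was at -0.52 and 0.17, and Bax at -0.34 and 0.0581, in the same order. Between cell numbers (20000 over 10000), Sesn2 was at -0.92 in experiment 1 and 0.67 in experiment 2. In the same order Aen was at -0.39 and 0.65, Trp53 at -0.26 and 0.43, Bax at -0.21 and 0.19, Zmat3 at -0.0842 and 0.22, and Ccng1 at 0.012 and -0.29.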

How the results depend on the processing

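Between experiments, RLE size factors, library totals alone, no filter on low counts, a cell number block and the added 5000-cell library each left 8 members called, a mean of at least 10 CPM left 7 of the 9 then tested, and DESeq2 left 5. Leaving out each library in turn gave 2 to 6 called members and 803 to 1815 called genes. In those fits Trp53 ran from -0.38 to 0.0383 (log2) and changed sign. The lone library of an arm is then assumed to vary like the others. Between cell numbers, 0 members were called in every alternative run. Called genes numbered 2 without a filter and 4 with the experiment as replicate block, the paired fit. Aen was at 0.0916 with that block, and Zmat3 at -0.0066 with a mean of at least 10 CPM. Leaving out each library, the cell number differences ran for Trp53 from -0.17 to 0.33, Mdm2 from -0.16 to 0.47, Cdkn1a from -0.26 to 0.51, Ccng1 from -0.99 to 0.62, Bax from -0.18 to 0.14, Bbc3 from -0.999 to 1.19, Phlda3 from -0.41 to 0.72, Sesn2 from -0.91 to 0.65, Aen from -0.59 to 0.87 and Zmat3 from -0.41 to 0.62. Pairs of member and list with a promoter peak fell from 50 to 33 with the 9097 widest peaks of each list, and numbered 39 with peaks of at least 50 bp, 42 within 500 bp and 56 with any RefSeq start. The causes were not tested. The depth of the ATAC libraries is unknown, so a missing peak is not evidence of closed chromatin.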
